A study of Drosophila melanogaster with 8 samples.

Results

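KDM5 peaks of the X chromosome of Drosophila melanogaster were described in the prothoracic gland. They were all rows of the deposited peak list whose chromosome was X, which gave 761 of 4931 peaks. The peaks of the autosomal arms 2L, 3L and 3R, 3120 in all, were used for comparison. KDM5 binding had been mapped by Targeted DamID, in which a bacterial DNA adenine methylase (Dam) fused to KDM5 marks nearby GATC sites. One group of animals carried UAS-LT3-damkdm5 and the other UAS-LT3-dam, which expresses Dam alone. Both carried spok-Gal4, whose driver is active in the prothoracic gland, and tub-Gal80[ts], which holds Gal4 off at low temperature. Eggs were collected for 24 h at 18°C, and larvae were kept for 5 days at 18°C and then for 2 days at 29°C before wandering larvae of the last instar were collected. Each group had 4 samples of 100 larvae. Per the study's methods males and females were used in equal numbers and pooled, a statement made for all its experiments, so X values come from both sexes mixed. DNA came from whole larvae, so the tissue of the signal was set by the driver, and binding data hold no expression with which to check that label.

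KDM5 proteins are demethylases of histone H3 lysine 4 that also act on transcription through other domains. The prothoracic gland makes the steroid hormone ecdysone, whose pulses time the moults and metamorphosis. In Drosophila the X differs in number between the sexes, and the MSL complex, guided by the roX RNAs, raises transcription of the male X. The X also carries genes for steroid synthesis, the early ecdysone response and the counting of X chromosomes.

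The score of a peak is the authors' value for Dam:KDM5 relative to Dam alone in the average of the 4 profiles. Neither its log base nor the way it sums up the fragments of a peak is stated. The files held no values per sample, so the depth of each sample is unknown here and no value has a replicate error. Peaks and genes of 1 averaged profile are not replicates, and no test was made. The X was instead set against the values of 2L, 3L and 3R one by one, and every comparison below is a description. All 761 starts and all 761 ends of X peaks fell at GATC sites of the dm6 reference, as did those of the 3120 other peaks. A peak is therefore a run of whole GATC fragments, and a count of fragments is used below beside its width.

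Stretches of 120 bases are shown from 6 of the highest-scoring X peaks and from the lowest, because the GATC site is the unit in which binding was read. Each is the stretch outside annotated UTRs that held a GATC inside the peak and lay nearest to its centre. Sequences are from RefSeq, release 6 of the genome (dm6), plus strand, 5′ to 3′, and capitals mark GATC.
sqh, chrX:6223885-6224004: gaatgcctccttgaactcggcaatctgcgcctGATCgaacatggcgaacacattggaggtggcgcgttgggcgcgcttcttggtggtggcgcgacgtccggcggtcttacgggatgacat
br, chrX:1616176-1616295: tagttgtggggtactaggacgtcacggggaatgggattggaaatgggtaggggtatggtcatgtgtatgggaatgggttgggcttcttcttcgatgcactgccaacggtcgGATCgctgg
Gmap, chrX:15501044-15501163: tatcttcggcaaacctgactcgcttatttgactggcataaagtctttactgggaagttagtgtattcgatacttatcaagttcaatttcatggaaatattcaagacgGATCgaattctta
Bcat, chrX:13397644-13397763: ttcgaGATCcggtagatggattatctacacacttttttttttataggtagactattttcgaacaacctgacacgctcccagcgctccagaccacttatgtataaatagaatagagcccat
Hsc70-3, chrX:11804420-11804539: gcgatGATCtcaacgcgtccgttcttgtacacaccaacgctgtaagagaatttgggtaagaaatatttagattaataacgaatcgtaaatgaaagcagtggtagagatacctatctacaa
Moe, chrX:8890874-8890993: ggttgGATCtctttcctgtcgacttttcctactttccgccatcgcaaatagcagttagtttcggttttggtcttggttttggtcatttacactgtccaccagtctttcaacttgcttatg
CG14803, chrX:1870509-1870628: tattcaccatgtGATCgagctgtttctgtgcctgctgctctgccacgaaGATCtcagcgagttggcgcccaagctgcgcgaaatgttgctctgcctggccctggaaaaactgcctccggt

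The sqh and CG14803 stretches lay wholly in coding sequence. Those of br, Gmap, Bcat and Moe were wholly intronic, and the Hsc70-3 stretch held 39 coding and 81 intronic bases. The sqh peak had 3 fragments over 276 bp with a score of 9.99, whereas the CG14803 peak had 10 fragments over 1788 bp with a score of 1.87. A GATC in a stretch says only that the site could be read there.

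The 12 X peaks with the highest scores lay over genes of varied function. The highest (chrX:6223840-6224115, 9.99) lay wholly in exons of sqh, which encodes the light chain that switches on non-muscle myosin II. Its centre was 180 bp downstream of the TSS. Next came an intronic peak over br and Mur2B (chrX:1615379-1616636, 8.88). br encodes the Broad zinc finger factors of the early ecdysone response, and Mur2B, a mucin-related gene, overlaps it on the other strand. A second peak of these genes (chrX:1612337-1613006, 8.10) was also among the 12 and lay 330 bp downstream of a br TSS. The Gmap peak (chrX:15499924-15502282, 8.84) was intronic too. Gmap encodes a golgin of the Golgi apparatus.

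The other 8 of the 12 also belonged to genes of different kinds. The peak of Bcat, which encodes the branched-chain amino acid transaminase, scored 8.66 (chrX:13397330-13398612). RpS15Aa, a protein of the small ribosomal subunit, had a peak of 8.48 (chrX:13336277-13337439). The complex I subunit gene ND-B18 shared with opm a peak of 8.45 (chrX:15064556-15065739) that lay wholly in exons. Hsc70-3, the chaperone BiP of the endoplasmic reticulum, had a peak of 8.39 (chrX:11804150-11804833). A peak over CG15814 and Spt7, a SAGA coactivator subunit, scored 8.77 (chrX:17849612-17851056), and its centre lay 8 bp from the CG15814 TSS. The remaining peaks belonged to Moe, the moesin that ties actin to the membrane (chrX:8890810-8892406, 8.32), to CG15743 (chrX:13286095-13286477, 8.23) and to Rab35, a GTPase of endosomal recycling (chrX:20158182-20159489, 8.17). All 12 centres lay downstream of the nearest TSS, 7 of them by less than 1 kb, and 8 of the peaks overlapped a single protein-coding gene.

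At the other end of the ranking, the peak of dgt4, an augmin subunit gene, and Tip60, an acetyltransferase gene, scored 1.89 over 7 fragments. The peak of CG15449 and Ntf-2, which encodes a carrier of Ran into the nucleus, scored 1.88 over 8 fragments. The CG14803 peak, at 1.87, lay in coding sequence upstream of the TSS of its neighbour Pex5. The lowest scores were thus found in peaks of many fragments.

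Scores of X peaks were lower than those of the other arms through most of their range. The median score was 4.20 on X (quartiles 3.08 and 5.57, range 1.87 to 9.99) and 4.63, 4.54 and 4.69 on 2L, 3L and 3R. The difference from the 3 arms together was -0.435, and the SD between these arms was 0.0755. A total of 77 X peaks (10.1%) scored 7 or more, against 13.2% to 13.9% of the peaks of the other arms. Scores under 3 were found in 179 X peaks (23.5%), against 16.2% to 19.4%. X held 19.6% of the peaks of the 4 arms, but 9 of the 100 highest and 155 of the 1001 highest (15.5%). The FDR given by the authors was also higher, with a median of 4.46e-06 on X and 1.66e-07 on the other arms together. It was under 0.001 in 583 X peaks (76.6%), against 83.0% to 84.5%.

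**Figure D1:**
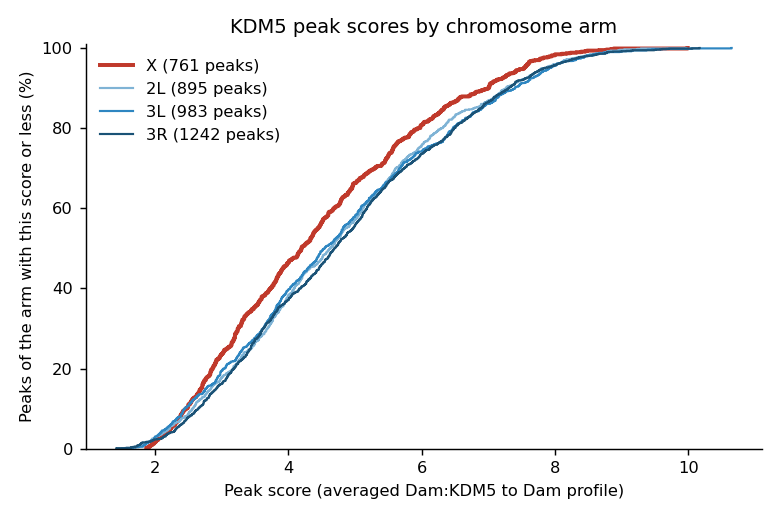
Cumulative share of the KDM5 peaks of an arm (vertical axis, %) against the peak score (horizontal axis), 1 line for X (red) and 1 each for 2L, 3L and 3R (blues). The X line runs left of the other 3 from a score of about 3 to 8, with a median of 4.20 against 4.54 to 4.69.

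The score of a peak went with the number of GATC fragments it spanned. X peaks of 3 fragments had a median score of 6.99 and none was below 5.74, whereas X peaks of 6 to 7 fragments had a median of 3.06. Peaks of 6 fragments or more made up 46.8% of the X peaks, against 38.9% to 42.1% on the other arms. Peaks of 3 or 4 fragments made up 32.6% of X peaks, against 36.8% to 39.0%. GATC sites were denser on X, at 2.86 per kb against 2.66 to 2.80 per kb, and the median fragment of the arm was 184 bp long, against 196 to 202 bp. In base pairs the widths were similar, with a median of 1441 bp (60 to 7279 bp) against 1457 bp. Both had a median of 5 fragments.

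Within classes of equal fragment number, X and the other arms were closer. The medians were 6.99 on X and 7.03 on the other arms for 3 fragments, and 5.46 and 5.55 for 4. For 5 fragments they were 4.18 and 4.24, and for 6 to 7 they were 3.06 and 3.29. X was the lower in each of the 6 classes, with differences of -0.04 to -0.23. Weighted by the number of X peaks with each fragment number, the difference was -0.142. The same measure for each of 2L, 3L and 3R against the rest of these arms lay between -0.0531 and 0.0672. The difference was thus smaller at equal fragment number than between the overall medians (-0.435). These values are computed in different ways, so one is not a share of the other. Score and fragment number also come from the same peak calling. The part of fragment number in the lower scores of X was not tested.

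**Figure D2:**
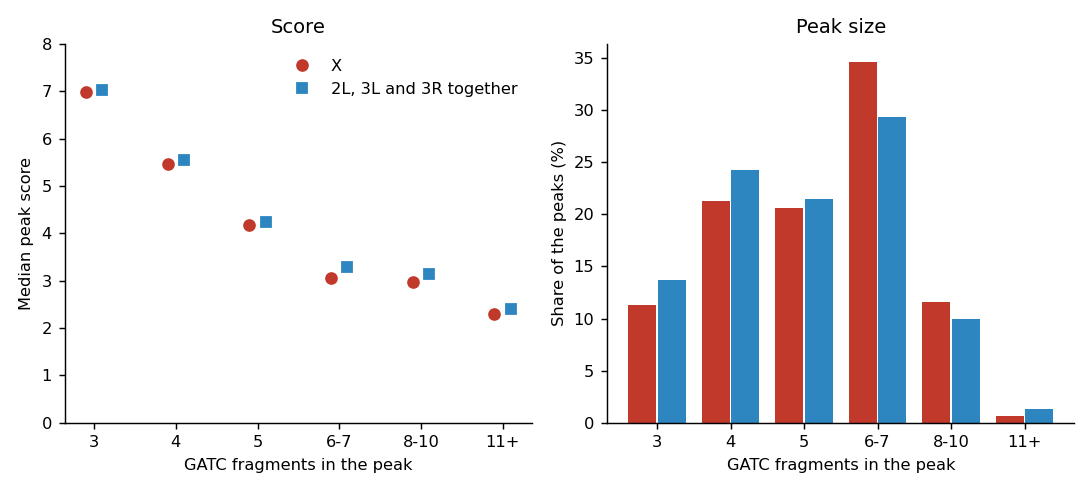
Median peak score (left, score) and share of the peaks (right, %) by the number of GATC fragments in a peak, for X (red) and for 2L, 3L and 3R together (blue). Scores fall from 6.99 to 2.30 on X over the classes, and X has more of its peaks in the class of 6 to 7 fragments (34.6% against 29.3%).

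Over the full list, peaks were sparser on X per length of DNA but not per gene. X held 32.3 peaks per Mb, against 38.1, 35.0 and 38.7 on 2L, 3L and 3R, and peaks covered 5.35% of X, against 5.95% to 6.46%. X also had fewer protein-coding genes, at 93.3 per Mb against 97.4 to 113 per Mb. Per 100 protein-coding genes there were 34.7 peaks on X, within the range of 33.7 to 36.3 on the other arms. With FDR under 0.001 there were 583 peaks for 2196 protein-coding genes on X. On 2L, 3L and 3R there were 756 for 2657, 816 for 2739 and 1033 for 3421. At that threshold X thus had fewer peaks per gene than each of these arms. With FDR under 0.001 the ratio per Mb to the other arms was 0.796, against 0.867 for all peaks. Per 10000 GATC sites X had 113 peaks, against 125 to 143. In the 23 full bins of 1 Mb, X had 9 to 55 peaks (median 33), and no bin was empty. Of the 83 full bins of the other arms 6 were empty, 2 on 3L and 4 on 3R. These 6 bins held 0 to 7 gene starts each but count in the lengths used for peaks per Mb. A ratio per Mb without them was not computed. The count of peaks went with the count of gene starts in the bin, with a Pearson r of 0.88 over the 23 bins of X and 0.86 over the 83 bins of the other arms. These r values are descriptions over neighbouring bins of the same arms. The bin of the 16th Mb had the most peaks, 55, beside 140 gene starts, while the bin before it had 11 peaks beside 88 gene starts. Of 22 X bins with at least 10 peaks, 20 had a median score under 4.635, the median of the other arms, against 37 of the 72 such bins there.

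**Figure D3:**
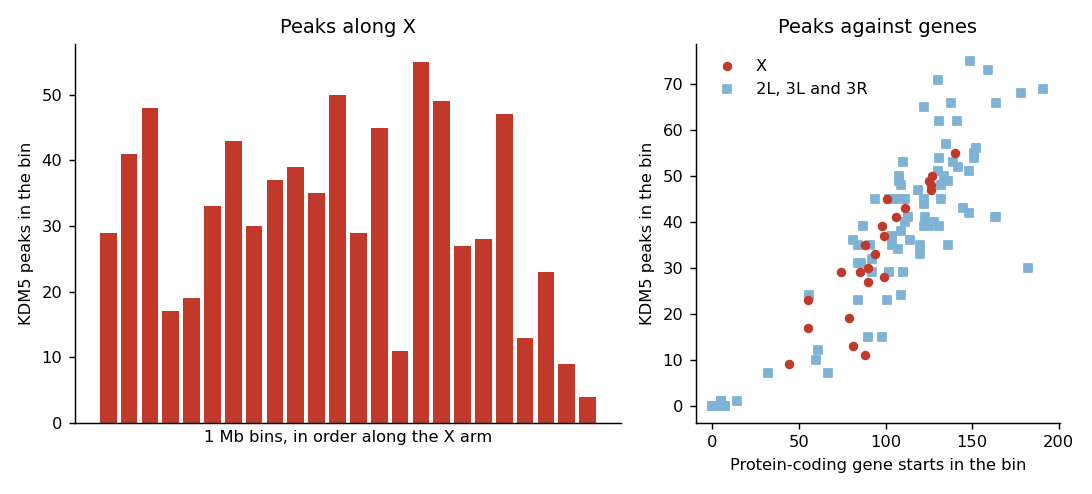
Number of KDM5 peaks in each 1 Mb bin along X (left; the last bar is a partial bin), and number of peaks against the number of protein-coding gene starts in full bins (right) of X (red circles) and of 2L, 3L and 3R (blue squares). The X bins, with 9 to 55 peaks, lie within the cloud of bins of the other arms.

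Neighbouring X peaks were a median of 6541 bp apart, against 4670 to 6078 bp on the other arms, and 43.2% were closer than 5 kb, against 45.9% to 51.1%. Peaks stood alone or in short runs. Joined at distances under 5 kb, 248 X peaks stood alone and 17 runs held 5 or more peaks, 98 in all. The longest run had 9 peaks over 24841 bp (chrX:1856663-1881503) with scores of 1.87 to 7.41, from deltaCOP, a coatomer gene, to trr, which encodes a methyltransferase of histone H3 lysine 4. Next was a run of 8 peaks (chrX:8130459-8160437) around Smox. The longest stretch between neighbouring peaks, 815598 bp, lay towards the centromere (chrX:21629578-22445175) between the peaks of DIP1 (7.02) and CG14621 (5.98), and 21 protein-coding genes lay in it. A stretch of 448807 bp between Lsm12a (5.61) and CG42258 (6.26) held 23 genes, Usp7 and Rab40 among them. One of 375235 bp between Cyp6v1 (2.50) and Ntf-2 (3.38) held 19 genes, including the pair-rule gene run. Every listed X gene overlapped a peak, so stretches picked for having no peak could hold no gene listed as bound.

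Most X peaks lay at gene starts. A total of 624 (82.0%, exact 95% binomial interval 79.1 to 84.7%, counting error only) came within 1 kb of an annotated TSS of a protein-coding gene, against 79.2% to 82.8% on the other arms. The centre lay up to 1 kb downstream of the nearest TSS in 346 peaks (45.5%) and up to 1 kb upstream in 109 (14.3%). Further away, 178 centres (23.4%) were intronic, 73 were in coding exons, 29 in UTRs and 25 between genes. The intronic share was 19.8% to 22.5% on the other arms. X peaks with a centre within 1 kb of a TSS had a median score of 4.52, against 5.01 to 5.06 on the other arms. Those in introns had a median of 3.97, against 4.07 to 4.42. The lower level on X was thus seen in both places.

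Most peaks overlapped few genes. An X peak overlapped 1 protein-coding gene in 485 cases, 2 in 232, 3 or more in 26 and none in 18. The peak with most genes (chrX:1025466-1031794) covered 7, including Cdc45, a replication helicase factor, and had 13 fragments, the highest number on X. A peak of 2.54 covered CG4313, CG4325, Actn, the actin crosslinker alpha-actinin, and usp, the partner of the ecdysone receptor. The third, over Flo2, a flotillin gene, with Eo and CG9503, had 3 fragments and scored 7.26. The 3 widest peaks had 7 to 10 fragments. CHES-1-like, a forkhead gene, had a peak of 7279 bp (3.83), Mnt, the antagonist of Myc, one of 6876 bp (2.79), and Atf3, a bZIP gene, one of 6727 bp (3.54).

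Genes on the authors' list of genes under peaks are called bound here. On X 784 of 2196 protein-coding genes were bound (35.7%, interval 33.7 to 37.7%). On 2L, 3L and 3R together 3414 of 8817 were bound (38.7%), or 36.6%, 38.2% and 40.7% arm by arm. The share on X was below all 3. Its difference from the 3 arms together was -3.02 points, and the SD between those arms was 2.08 points, so X lay close to 2L. X genes were longer, with a median of 2521 bp against 1986 to 2130 bp. The bound share was 9.63% in the shortest of 10 length classes and 50.2% in the ninth on X, against 12.4% and 55.2% on the other arms together, and was lower again in the longest, at 45.4% and 46.3%. Over the 10 classes, the X share was the lower in all 10, with differences of -0.868 to -9.63 points. Reweighted to the gene lengths of the other arms, the X share was 33.7%. The score of a bound gene, which is that of its highest peak, had a median of 4.40 on X, against 4.75 to 4.82.

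**Figure D4:**
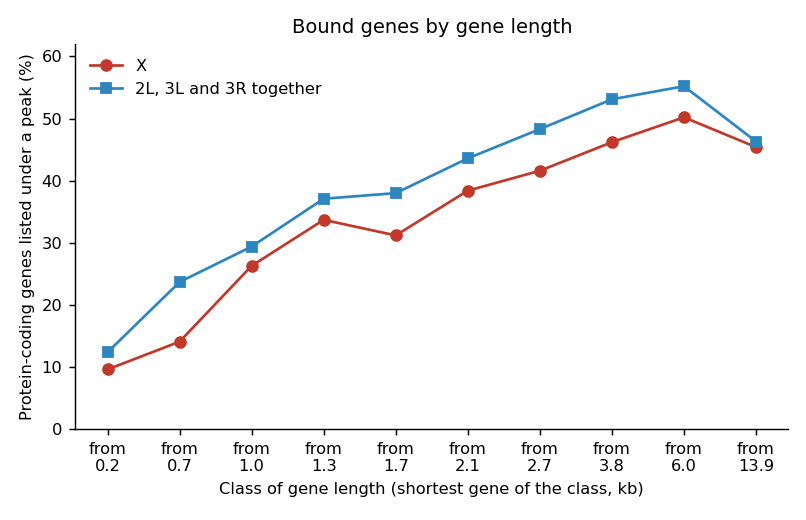
Share of protein-coding genes listed under a KDM5 peak (vertical axis, %) in 10 classes of gene length (horizontal axis, kb), for X (red) and for 2L, 3L and 3R together (blue). The X share runs from 9.63% in the shortest class to 50.2% in the ninth and lies under the other arms in all 10 classes.

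Most X genes with a peak had a single one. Of the 795 protein-coding genes whose annotated body overlapped a peak, on the authors' list or not, there were 618 with 1 peak, 140 with 2, 20 with 3, 12 with 4 and 5 with more. NFAT, which encodes a transcription factor, had 6 peaks that covered 33.2% of its 39824 bp, with scores of 2.72, 3.08, 2.46, 5.45, 4.73 and 2.30 in order along the arm. br and Mur2B shared 5 peaks with scores of 5.50, 5.58, 8.10, 8.88 and 7.60. These 5 were all above the X median of 4.20, and peaks cannot be divided between overlapping genes because DamID has no strand. sgg, the GSK3 kinase gene, also had 5, with scores of 2.53, 3.40, 3.82, 5.40 and 4.81. The 5 peaks in CG1677, which spans several other genes, had 2.38, 2.34, 7.82, 4.50 and 2.63. The highest lay 489 bp downstream of the TSS of brk, a repressor gene, and overlapped brk, as did the peak of 4.50. The first overlapped unc-119 and the last Atg5, and no peak lay within 1 kb of a CG1677 TSS.

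A set of 5 motifs was searched on both strands in 500 bp around the peak centre, and 500 bp tiles of the arm and 500 bp around gene starts gave the background. A match is a description of letters and not a site of binding. The most frequent was the CA repeat CACACACA, in 14.3% of X peaks and 8.85% of the others, with tile shares of 12.9% and 8.83%. The GA repeat GAGAGAGA was in 4.47% of X peaks and 2.85% of the others (tiles 3.74% and 2.58%). Both repeats were more frequent in the X arm itself, peaks or not. The DNA replication-related element TATCGATA, the DRE, was in 25 X peaks (3.29%, interval 2.14 to 4.81%) and 2.08% of the others, against 1.74% and 1.23% of tiles and 14.5% and 8.90% of gene starts. The E-box CACGTG was in 7.49% and 6.86% (tiles 5.62% and 5.94%, gene starts 9.24% and 6.56%). The M1BP motif GGTCACACT was in 1.31% of both (tiles 0.635% and 0.473%, gene starts 7.15% and 6.29%). DRE and M1BP matches were thus rarer in the middle of X peaks than at X gene starts. The windows sit in different places, since only 134 X peaks (17.6%) had a centre within 250 bp of the nearest TSS. What the shares would be at equal distance from a TSS was not tested. X peaks with a CA repeat had a median score of 4.60 and those without one 4.14. On the other arms together these medians were 5.11 and 4.59, so the gap was not particular to X. With and without the motif, X medians were 4.78 and 4.19 for the DRE and 4.28 and 4.20 for the GA repeat. The E-box (3.83 and 4.24) and the M1BP motif (3.85 and 4.20, with the motif in only 10 peaks) went the other way on X. On the other arms together the medians were 4.73 and 4.63 for the E-box and 4.98 and 4.63 for the M1BP motif. Arm by arm, the direction differed for both motifs.

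The DRE and the CA repeat are shown as 40-base stretches from high-scoring X peaks that held them outside annotated UTRs, in capitals, on the plus strand of dm6 (TGTGTGTG is the CA repeat read from the other strand).
Gapdh2 and CG16952, chrX:15869940-15869979: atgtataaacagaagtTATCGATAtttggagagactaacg
RpS5a and Chchd2, chrX:17148515-17148554: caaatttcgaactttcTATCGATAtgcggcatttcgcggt
RpS15Aa, chrX:13337025-13337064: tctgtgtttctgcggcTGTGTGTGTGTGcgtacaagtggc
Moe, chrX:8891442-8891481: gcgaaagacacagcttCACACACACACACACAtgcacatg
Myc, chrX:3373842-3373881: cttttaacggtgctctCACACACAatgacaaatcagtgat

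The Gapdh2 and RpS5a stretches hold the DRE and lay between genes. The other 3 hold the CA repeat and lay in introns. Gapdh2, a glycolytic enzyme gene, had a peak score of 7.24, and RpS5a, a ribosomal protein gene, one of 7.03.

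The 12 lists of X genes held 192 members, of which 85 were bound. They were drawn up from textbook roles, but with earlier results of these data known. The counts stand beside 35.7% for all X protein-coding genes, and the scores beside 4.40 for all bound X genes. The score of a gene is that of its highest peak, and not all genes that share a peak are named. Of the lists, 7 were above 35.7%. Because of how the lists were chosen, a share above or below 35.7% describes the named members only. No list was tested.

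Among genes that count X chromosomes or compensate dosage, 2 of 9 were bound. They were Sxl, the switch gene of female development, with a peak of 4.70 in its body, and snf, a splicing factor that acts on Sxl transcripts, with a peak of 3.14 shared with TrxT. The dosage compensation genes roX1, roX2 and mof, the MSL acetyltransferase, lay 8222, 4198 and 2249 bp from the nearest peak. The X-counting genes sisA, sc, run and upd1 were not bound either, at 3384 to 50394 bp from the nearest peak.

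Of 12 genes of ecdysone production, turnover and response, 4 were bound. All 4 act in transcription: br (8.88), Smox, the Smad of activin signalling (5.50), the nuclear receptor gene Hr4 (4.38) and usp (2.54). Phantom, the hydroxylase of ecdysone synthesis annotated here as phtm, was 6578 bp from a peak of 2.09. Cyp18a1, which inactivates ecdysone, was 1969 bp from one, and dor, a vesicle fusion gene, 22599 bp. The glue and glue-like genes Sgs4, Pig1, ng1, ng2 and ng3, which are salivary gland genes, were 63909 to 73972 bp from the nearest peak. These 5 genes lie in 1 cluster.

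Of 17 genes of MAPK, insulin, TOR and Hippo signalling 13 were bound. Their median length was 9149 bp, a class of length in which 50.2% of X genes were bound. The highest scores were at Myc (8.00), at rictor, the TORC2 subunit (7.61), and at Atg8a, the autophagy ubiquitin-like protein (6.23). Raf, the MAPK kinase kinase, and Ilp6, an insulin-like peptide gene inside it, shared a peak of 5.99. Mnt (6.05) and sev, the receptor tyrosine kinase (5.46), were above the median of 4.40, while csw (3.45), Tao (3.40), AMPKalpha (3.15), Ptp10D (3.10), Atg5 (2.63) and sd (2.56) were below it. The genes not bound were Dsor1, the MAPK kinase, 624 bp from a peak, Ilp7, Atg101 and raptor, the TORC1 subunit, 45677 bp away.

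On the list of Notch, Wingless and BMP signalling, 5 of 11 genes were bound. They were Bx, a LIM-only cofactor (5.89), peb, a zinc finger factor (5.81), sgg (5.40), arm, the beta-catenin (4.28), and dsh (3.39). Notch itself had no peak over its 37352 bp. dx, amx, sog, fu and Axs were not bound either, although fu and Axs belong to none of these pathways. In the list of calcium, lipid messengers and G proteins, 4 of 13 were bound: norpA, a phospholipase C (6.29), Gbeta13F (5.69), Stim, the calcium sensor of the endoplasmic reticulum (3.55), and the potassium channel gene Ork1 (3.33). The channel genes cac and para, long genes of 53808 and 78070 bp, had no peak. dnc, the cAMP phosphodiesterase of 167328 bp, had a peak of 4.06 within 1 kb of a TSS but 323 bp outside the gene.

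Chromatin and transcription genes were bound in 11 of 18 cases. The highest was Polr2A, the largest subunit of RNA polymerase II (7.83, shared with CG11699). The neighbouring Polycomb genes ph-p and ph-d had 7.0 and 5.89, nej, the CBP acetyltransferase, 6.17 and the bromodomain gene fs(1)h 5.56. Both genes of histone H3 lysine 4 methylation were bound, wds at 5.03 and trr at 3.66, each in a peak shared with another gene. Each of these peaks met only the downstream end of wds or trr. The TSS nearest to the peak centre was that of the neighbour, egh for wds and Coa8 for trr. A peak lay within 1 kb of a TSS for trr but not for wds. Spt6 (4.04), Bap60 (3.31), HP1b (3.26) and pcm (2.26) scored less than 4.40. Bap111, Taf9, e(y)2, MED22 and l(1)sc were not bound. Tlk and e(y)3 were not bound in this sense but had a peak within 1 kb of a TSS.

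Of 21 genes of mitochondria and central metabolism 13 were bound. Citrate synthase (kdn) had peaks of 5.63 and 7.91, the IMP dehydrogenase gene ras 7.47 and Gapdh2 7.24. Ahcy, which clears S-adenosylhomocysteine, had 6.40, and Pfrx, a regulator of glycolysis, had peaks of 4.89, 6.03 and 5.24. The pentose phosphate enzymes Pgd and Zw had 5.55 and 4.89, and the citric acid cycle enzymes Fum1 and Idh3a 5.44 and 5.07. The ADP/ATP carriers sesB and Ant2 overlap and shared a peak of 3.81, mRpL16 had 3.91, and Marf, the mitofusin, 2.15. The peaks of ras, Gapdh2, Ahcy, Fum1, Idh3a, mRpL16 and Marf also overlapped a neighbouring gene, and so did peaks of Pfrx. These scores therefore do not belong to the metabolic genes alone. ND-75, Pdha, Pink1, tko, ATPsyndelta, Tom40, sicily and Gs2 were not bound.

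Cytoplasmic ribosomal protein genes had the highest median score of the lists, 6.90. Of 14 on X 12 were bound, although the median length of the 14 was 1603 bp. Their scores ranged from RpS6 (4.77) to RpS15Aa (8.48), and RpL36 (7.53), RpS10b (7.21), RpS14a (7.03), RpS5a (7.03) and RpL35 (7.01) were above 7. All 12 were above the X median of 4.40 for bound genes. The remaining genes had a peak within 1 kb of the TSS too. RpL37-1, not on the authors' list, had one of 6.54 in its body, and the RpS14b TSS lay 789 bp from the 7.03 peak of Dhdds and RpS14a. RpS14a and RpS14b are near-identical copies, so reads between them are uncertain.

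Of 13 genes named Rab on X 5 were bound. They were Rab35 (8.17), Rab39 (6.29), Rab10 (5.21), Rab21 (2.84) and Rab18 (2.51). Rab27, Rab40, the 5 Rab9-like copies Rab9D, Rab9Db, Rab9E, Rab9Fa and Rab9Fb, and Rab3-GEF, which is an exchange factor and not a Rab, were not. The 5 copies resemble each other, and reads in them may be hard to place.

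Genes of the cytoskeleton, adhesion and endocytosis had the largest bound share, 16 of 18 (88.9%), and a median score of 5.95. sqh (9.99), Moe (8.32), the integrin alpha gene if (7.57), Act5C (7.27), Flo2 (7.26), the clathrin heavy chain gene Chc (6.80), the gap junction gene Inx2 (6.50) and Vinc, vinculin (6.33), were the highest. The integrin beta gene mys (5.56) shared its peak with fs(1)h. ogre (4.19), Rok, the kinase that acts on Sqh (3.78), cib (3.66), dlg1 (3.60), baz (3.45), shi, the dynamin (3.19), and Cdc42 (2.99) were lower. The unbound members were sn, fascin, and mew, another integrin alpha gene. The list was drawn up with the sqh peak known and its genes are long, with a median of 14002 bp.

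No gene was bound in the remaining lists. None of the 15 genes on the list of yolk, eggshell, pigment and cuticle was bound. They ranged from the yolk protein genes Yp1, Yp2 and Yp3 and the chorion gene Cp36 to the pigment genes y, w and v. The list also held g, m, f and ac, and not all of these fit its name or act only in other tissues. The nearest peaks of the 15 genes were 1788 to 24365 bp away. None of 31 chemoreceptor and odorant-binding protein genes was bound, and none had a peak within 1 kb of a TSS. Several of these genes lie in clusters, so the 31 are not independent.

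**Figure D5:**
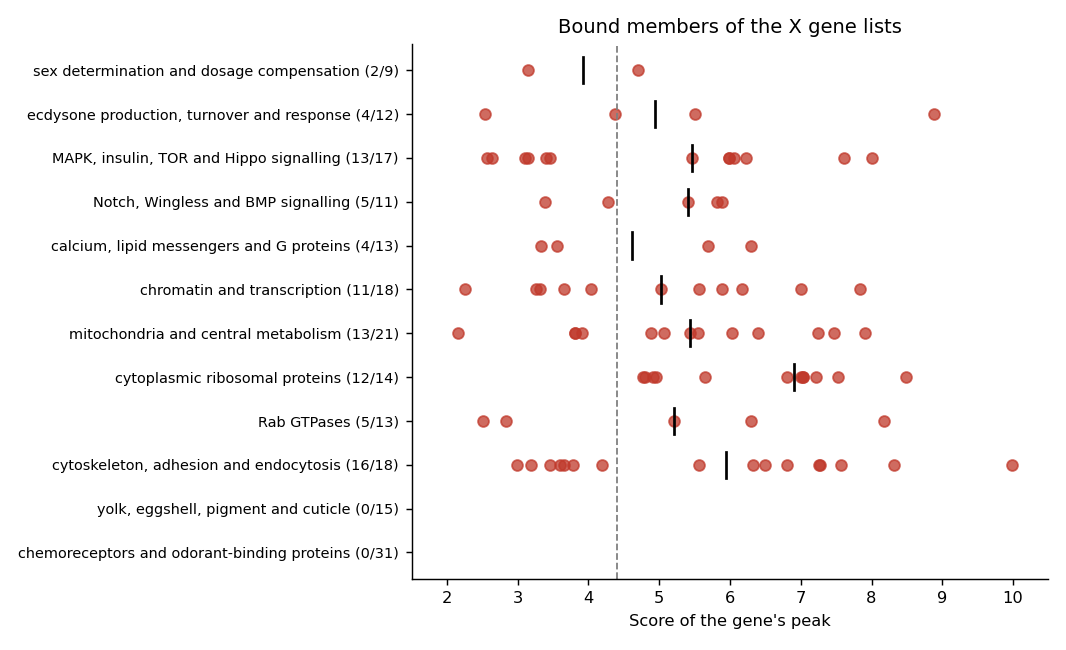
Score of the highest peak of each bound X gene (horizontal axis) in 12 gene lists, with bound and total members in brackets. Each dot is a gene, the black bar the list's median, and the dashed line the median of 4.40 of all bound X genes. The dots of the ribosomal list all lie right of the line, and the lists of yolk and eggshell genes and of chemoreceptors have no dot.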

How the data were processed

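Per the labels and the study's methods, reads were aligned to dm6, and damidseq_pipeline gave profiles of Dam:KDM5 relative to Dam alone. The authors averaged the 4 profiles, called peaks on the average with find_peaks at an FDR of 0.01 and took overlapping genes with peaks2genes. For tool versions, the sources used here give nothing. Used here are the deposited score of each peak, its FDR and the score of each listed gene. The depth of each sample is unknown.

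Peaks on X were taken by chromosome name and set against 2L, 3L and 3R with Python 3.11.15, numpy 2.4.6 and scipy 1.17.1, using Ensembl release 115 genes and the RefSeq genome. Intervals on shares are exact binomial and cover counting error only. Functions were tested on simulated data. Named genes were those under the 12 highest and 3 lowest peaks, the 3 widest and 3 richest in genes, the 5 genes with most peaks, those next to the 3 longest stretches without a peak, all list members, and genes beside printed sequences or runs, chosen after their values were seen. Members and lists were chosen with earlier results of these data known. From the lists, 8 names were dropped (5 not on X, 2 duplicate names, and hep, a kinase gene entered by mistake), and 6 older symbols were matched to current ones by hand. Alternatives covered thresholds, windows, denominators and comparison arms.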

Additional observations from a re-analysis of the deposited data

How the results depend on the processing

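A total of 83 alternatives were run over 32 results. Only ratios and differences between X and the other arms have a direction. Among these, none turned a direction that exceeded the spread between arms. Within that spread, the E-box difference went from 0.631 to -0.00682 points at 1000 bp. The M1BP motif difference went from -4.21e-05 to 0.0513 points at 300 bp. With FDR under 0.001, X had 24.8 peaks per Mb, a ratio of 0.796 to the other arms and a median score of 4.60. With scores at or above the median of all peaks, these were 13.7 per Mb and a ratio of 0.712, and 87.3% of X peaks were near a TSS. With all peaks, the ratio per 100 protein-coding genes was 0.979, against 0.867 per Mb. Within equal fragment numbers the score difference was -0.142, against -0.435. Windows of 500 bp and 2 kb put 69.1% and 89.9% of X peaks near a TSS. The bound share of X genes was 37.8% by a peak within 1 kb of a TSS, 17.3% by a peak at or above the median score and 29.4% by a peak with FDR under 0.001, and X was the lower in each case. In windows of 300 and 1000 bp, X peaks held the DRE in 1.97% and 7.23%, the GA repeat in 2.63% and 8.41%, the CA repeat in 8.80% and 25.8% and the E-box in 4.60% and 12.9%, and the M1BP motif in 2.63% at 1000 bp. Leaving out 2L, 3L or 3R in turn kept the direction of the ratio of peaks per Mb, of the score difference and of the difference in bound share, the 3 results for which it was run. Leaving out replicates was not possible without values per sample. No paired analysis was possible because the files hold only the averaged profile. FDR and score come from 1 profile, so their precision between samples is unknown.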

Other observations

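A total of 117 X protein-coding genes had a peak within 1 kb of a TSS but were not on the authors' list, and the highest such peak of each had a median score of 4.13. Only 9 of them had a peak in the gene body, and 8 had one of 7 or more near the start. CG15747 lay 879 bp from the 8.48 peak of RpS15Aa, and CG15784 lay 66 bp from a peak of 7.77 that overlapped no protein-coding gene. Mks1, a gene of the ciliary transition zone, lay 854 bp from a peak of 7.61 over mdu, and Pop1, an RNase P subunit gene, 781 bp from one of 7.32 over Mlc-c. CG46440, the only 1 of these 5 with peaks in its body, had 2 of them. Of 617 other annotated genes of X, such as those of non-coding RNAs, 65 were listed and 68 overlapped a peak. These genes were picked by score after the values were seen.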
